A study of Mus musculus with 20 samples.

Results

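The Hox genes encode homeodomain transcription factors and lie in 4 clusters, named Hoxa to Hoxd. Here 38 of them were examined for accessible chromatin in tail skin of mice: 10 genes of the Hoxa cluster, 10 of Hoxb, 9 of Hoxc and 9 of Hoxd. An accessible region was counted as a Hox region when the summit of at least 1 of its peaks lay in the span of a listed gene or within 10 kb of its ends. All 38 genes were found in the reference table. The 10 peak lists held 463 such regions of 539319 regions in all, made of 919 of 924275 peaks. Merged over the lists, the Hox regions formed 87 sites of 101406 sites. Genes were chosen by name and position and not by their values, though with earlier results of these data known.

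Open chromatin was measured with ATAC-seq, a method that uses a transposase, Tn5, to cut and tag DNA wherever it is accessible. The cells came from the tail epidermis of mice of genotype Lrig1CreER/Rosa-TdTomato. In such mice a Cre recombinase expressed from the Lrig1 gene can switch on a red fluorescent reporter, so that Lrig1-expressing cells of the upper hair follicle and their descendants are marked. The cells, labelled Lrig1 GL, were also sorted for Sca1, a surface protein encoded by Ly6a, to enrich cells of the upper follicle. There were 20 libraries, 2 for each of 10 groups. One group was in homeostasis, 2 had been wounded for the first time either 1 week or 8 weeks earlier, and 1 had received its second wound 1 week earlier. In 4 groups the epidermis had been given vehicle, PRT4165, UVB, or UVB and a wound. The last 2 were cultures, grown from the control (non-memory) region or the distal memory region and titled as 8 weeks past the first wound. PRT4165 is a small molecule that inhibits PRC1, the Polycomb complex that ubiquitinates histone H2A. All groups share the reporter genotype. For age, sex, dose and the number of mice behind a library, the sources used here give nothing.

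Within a cluster, Hox genes are numbered from 1 to 13 by their order on the chromosome, and genes of the same number in different clusters are paralogs that resemble each other in sequence. In the embryo, low-numbered genes act towards the head and high-numbered genes towards the tail, and cells of adult skin are known to keep a Hox pattern that reflects their position. Silent Hox clusters are classical targets of the Polycomb complexes PRC1 and PRC2. Hoxc13 is required for normal hair and nail formation. Hoxa13 and Hoxd13 pattern the distal limb, and Hoxb13 acts in the tail bud and the prostate. The low-numbered Hoxa2 and Hoxb2 act in the hindbrain and neural crest.

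Each group has 1 peak list made from both libraries, and the lists held between 34644 regions (8 weeks after the first wound) and 73340 (UVB). The sources used here give no read depth, and no list has a value per library, so replicate error is unknown for every value here and differences between groups were not tested. In such bulk samples, fewer cells with an open site and less opening per cell cannot be told apart. All counts of present or absent regions move with the length of a list. The sorted-lineage and keratinocyte markers Lrig1, Ly6a, Krt14 and Krt5 had a region in their window in 10 of 10 lists. Of markers of other cell types, 2 to 4 of 6 fibroblast and 2 to 3 of 4 T cell genes had a region. So did 2 to 3 of 4 melanocyte, 1 to 3 of 3 endothelial and 0 to 2 of 2 Langerhans cell genes. Col1a2, Lum, Cd3d and Kit had none in any list, while Col1a1, Pdgfra, Cd2, Cd247, Dct, Mitf and Pecam1 had one in 10 of 10. Over all protein-coding genes, 66.1 to 76.1% had a region per list and 61.8% had one in 10 of 10 lists. These marker counts do not show how pure the sort was. Regions at 3 Y-linked genes were present in the lists of 1 week after either wound, of wounding with UVB and of both cultures, and absent from the other 5. A part of cell mixture, sex or list length in the results below was not tested unless a value is given.

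Promoter sequences show what kind of DNA the regions at Hox start sites cover. RefSeq (GRCm38.p6, the assembly of mm10) gave 24 promoters for 22 of the 38 genes, each from 250 bases before to 50 after a start site. Only Hoxc4 of the Hoxc genes and only Hoxb1, Hoxb4 and Hoxb8 of the Hoxb genes were among them. The promoter values are therefore mostly those of Hoxa and Hoxd. The 5 below are from the Hoxd and Hoxa clusters and stand for the range of the data: a promoter with a region in all 10 lists, one held by 7 lists, one held only by the cultures, one held by a single list, and one with no region in any list. Capitals mark CpG dinucleotides, the bases CG on the strand shown.
Hoxd11, chr2:74682073-74682372, plus strand, 10 lists: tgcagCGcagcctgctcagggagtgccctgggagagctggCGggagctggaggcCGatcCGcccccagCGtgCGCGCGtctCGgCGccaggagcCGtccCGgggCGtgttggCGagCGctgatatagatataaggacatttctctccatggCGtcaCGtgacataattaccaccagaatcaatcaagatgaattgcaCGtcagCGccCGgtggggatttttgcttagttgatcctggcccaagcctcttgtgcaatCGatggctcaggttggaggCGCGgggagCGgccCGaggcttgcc
Hoxd1, chr2:74762730-74763029, plus strand, 7 lists: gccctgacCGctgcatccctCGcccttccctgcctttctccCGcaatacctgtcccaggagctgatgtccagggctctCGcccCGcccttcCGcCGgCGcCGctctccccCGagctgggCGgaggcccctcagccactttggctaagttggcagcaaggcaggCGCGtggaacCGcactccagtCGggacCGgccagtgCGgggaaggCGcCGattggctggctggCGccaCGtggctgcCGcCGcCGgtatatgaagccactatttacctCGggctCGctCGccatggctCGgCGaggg
Hoxa13, chr6:52260831-52261130, minus strand, cultured lists: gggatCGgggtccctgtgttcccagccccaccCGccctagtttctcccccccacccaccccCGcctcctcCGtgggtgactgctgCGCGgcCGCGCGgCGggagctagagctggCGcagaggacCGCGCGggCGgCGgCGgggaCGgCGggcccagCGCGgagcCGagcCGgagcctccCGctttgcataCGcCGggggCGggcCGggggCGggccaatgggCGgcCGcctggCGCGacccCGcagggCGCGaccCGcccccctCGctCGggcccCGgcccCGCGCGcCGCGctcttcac
Hoxd13, chr2:74667975-74668274, plus strand, vehicle list: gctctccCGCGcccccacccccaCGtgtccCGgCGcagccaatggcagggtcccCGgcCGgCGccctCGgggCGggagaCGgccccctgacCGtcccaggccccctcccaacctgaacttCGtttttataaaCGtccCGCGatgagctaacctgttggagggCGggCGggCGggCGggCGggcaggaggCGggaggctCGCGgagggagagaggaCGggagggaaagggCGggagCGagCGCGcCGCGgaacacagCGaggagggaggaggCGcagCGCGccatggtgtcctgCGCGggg
Hoxd12, chr2:74674763-74675062, plus strand, no list: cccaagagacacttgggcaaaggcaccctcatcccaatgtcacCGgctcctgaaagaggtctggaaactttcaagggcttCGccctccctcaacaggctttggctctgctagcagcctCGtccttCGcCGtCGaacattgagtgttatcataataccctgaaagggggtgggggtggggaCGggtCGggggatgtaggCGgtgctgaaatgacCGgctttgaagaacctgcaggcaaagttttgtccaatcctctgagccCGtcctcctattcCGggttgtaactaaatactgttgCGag
The Hoxd11 promoter, the second of its gene in the table, holds 25 CpG, that of Hoxd1 29, that of Hoxa13 45, that of Hoxd13 37 and that of Hoxd12 13.

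Over the 24 Hox promoters the median was 14.5 CpG, against 7 over all 32851 promoters of the table, and 45.8% of the Hox promoters held at least 20 CpG, against 26.5% of all. CG occurred at least once in each Hox promoter and in 94.6% of all promoters. The 5 promoters with a region in 7 to 10 lists (Hoxa3, Hoxd1, Hoxd9, Hoxd10 and the second of Hoxd11) each held 20 to 29 CpG. The 9 promoters without a region in any list held 4 to 21, with a median of 10. CpG content did not order the promoters throughout: the 2 richest, of Hoxa13 and Hoxd13, had a region in 2 lists and 1 list, and the Hoxd4 promoter with 4 CpG had a region in both UVB lists. Of the 24 Hox promoters, 4 had a region in homeostasis, 7 at 1 week and 4 at 8 weeks past the first wound, and 3 after the second. Vehicle had 9, PRT4165 8, UVB 9, wounding with UVB 10, the control culture 6 and the distal culture 7. Over all promoters the share was, in the same order, 35.1, 38.6, 33.4, 35.7, 42.3, 41.1, 43.1, 41.3, 39.7 and 38.2%.

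**Figure D1:**
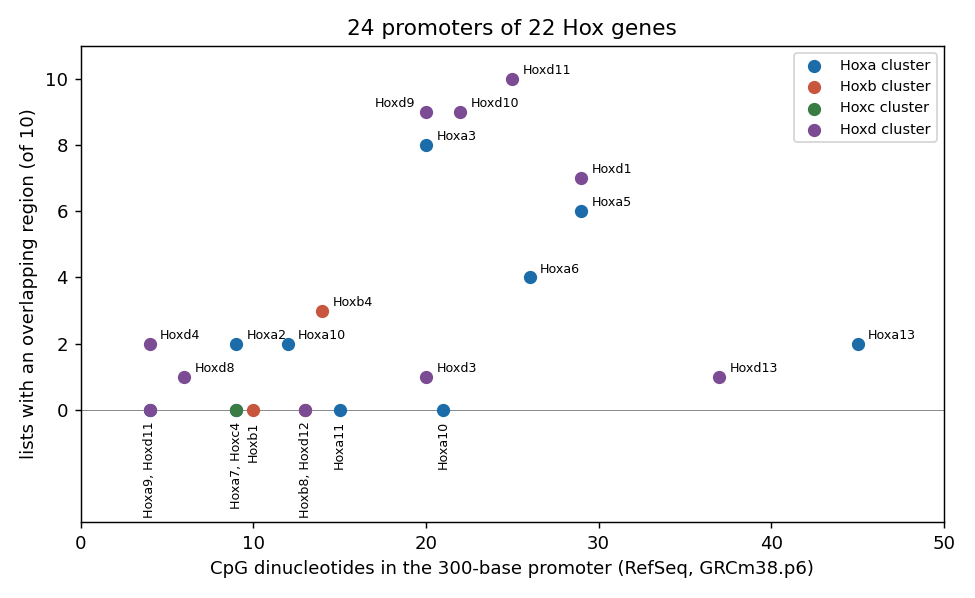
CpG dinucleotides in each of the 24 RefSeq promoters of 22 Hox genes (x axis) against the number of the 10 peak lists with an overlapping region (y axis), coloured by cluster. The 5 promoters present in 7 to 10 lists hold 20 to 29 CpG, and the promoters of Hoxa13 (45 CpG) and Hoxd13 (37 CpG) appear in 2 lists and 1 list.

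The clusters also carry microRNA genes. They are shown here because a region near Mir615 was among the strongest Hox regions in the uncultured lists. Those near the other microRNAs were sparse. In these mature sequences from RefSeq, capitals mark the seed, bases 2 to 8, which directs a microRNA to its targets.
miR-615-3p: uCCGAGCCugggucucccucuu
miR-10a-5p: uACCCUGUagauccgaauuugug
miR-10b-5p: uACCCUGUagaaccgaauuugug
miR-196a-5p: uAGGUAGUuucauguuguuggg
miR-196b-5p: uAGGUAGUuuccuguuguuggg
MiR-10a and miR-10b share 1 seed, and miR-196a and miR-196b share another. Mir615 lies inside Hoxc5 and had a region within 1 kb in 10 lists, while Mir10a, inside the long span of Hoxb3, and Mir196b, nearest to Hoxa10, had one in 3 lists each. Mir10b inside Hoxd4, Mir196a-1 nearest to Hoxb9 and Mir196a-2 nearest to Hoxc10 had none in any list. In those 3 lists (1 week past the first wound, vehicle and UVB) the region near Mir10a was the edge of a site at the Hoxb4 start, with signal values of 7.33, 6.26 and 7.49. That site was held by 8 lists, with 6.74 to 7.95 in the other 5, where it did not reach within 1 kb of Mir10a. The Mir196b region appeared with vehicle, with PRT4165 and in the cultured control (3.35, 3.62 and 3.66).

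The number of Hox regions was 25 in homeostasis, 44 at 1 week after the first wound, 22 at 8 weeks and 27 at 1 week after the second wound. Vehicle had 60, PRT4165 53, UVB 71 and wounding with UVB 65, and the control and distal cultures had 50 and 46. As a share of all regions of a list these counts ran from 0.0635% at 8 weeks (Wilson 95% interval 0.0419 to 0.0961%) to 0.101% in the cultured distal list (0.0755 to 0.134%), and the intervals of all 10 lists overlapped. Such intervals cover counting error only. Cut to the 34644 strongest regions of each list, the counts were 25, 17, 22, 20, 16, 14, 15, 14, 15 and 23 in the same order, so the longer lists no longer held more Hox regions.

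Hox regions were weak within their lists. The authors' signal value of a region, whose scale the sources used here do not define, had a median of 6.13 (cultured control) to 7.53 (second wound) over the Hox regions and of 8.96 to 10.96 over all regions of the same lists. The median Hox region was stronger than only 18.6 to 28.3% of the regions of its list.

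Of the 38 genes, 33 had a region in their window in homeostasis, 35 and 29 at 1 and 8 weeks past the first wound, and 32 past the second. The vehicle, PRT4165, UVB and wound-with-UVB lists had 37 each, the control culture 36 and the distal culture 37. Over 21883 protein-coding genes the shares were, in that order, 67, 71.4, 66.1, 68.7, 75.7, 75.5, 76.1, 73.6, 74.6 and 72.4%. Hox windows overlap each other, since the genes are packed closely, and 1 region can serve several of them. In all, 29 genes had a region in 10 of 10 lists, where 61.8% of all protein-coding genes did. Hoxa11 had one in 9 lists, Hoxb1, Hoxc9 and Hoxc12 in 8, Hoxd1 in 7, Hoxa13, Hoxb2 and Hoxd13 in 6, and Hoxb13 in 2. Within 1 kb of a start site, or of an end where the table gives no start, Hoxa3, Hoxa4, Hoxc10, Hoxc13 and Hoxd11 had a region in 10 lists, and Hoxa11, Hoxb3, Hoxb8 and Hoxd12 in none. By the same measure 43.8% of all protein-coding genes had a region in 10 lists and 36.9% in none.

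**Figure D2:**
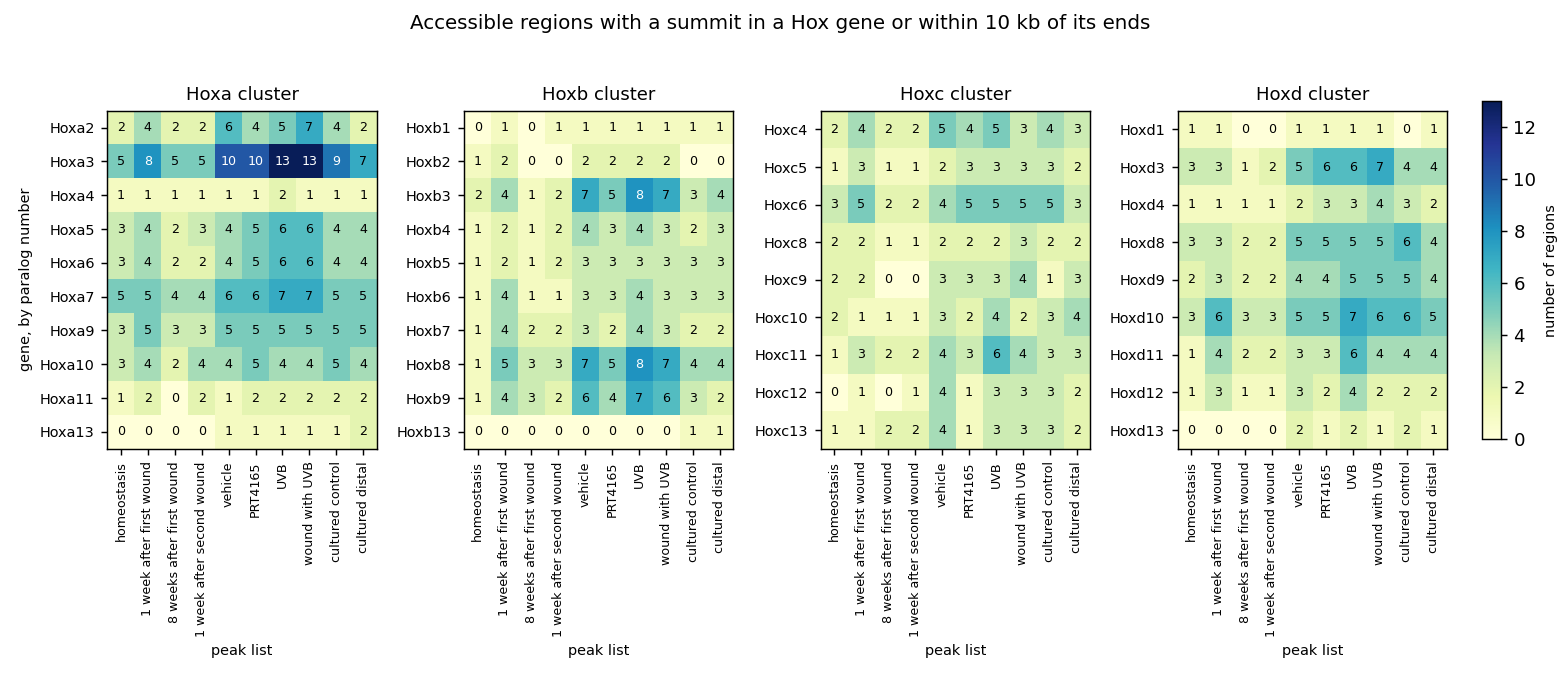
Number of accessible regions whose peak summits lie in each Hox gene or within 10 kb of its ends (rows, by cluster and paralog number) in each of the 10 peak lists (columns); a region in overlapping windows is counted for each gene. Hoxa3 reaches 13 regions, and Hoxb13 has a region only in the 2 cultured lists.

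The clusters differed in how many of their sites were shared by all lists. Hoxa had 23 sites, 5 of them in all 10 lists, and Hoxc had 26 with 5 in all lists. Hoxb had 19 sites with 1 in all lists, and Hoxd had 19 with 2. Together 13 of 87 Hox sites (14.9%) were in all 10 lists, against 18.8% of all sites, and 17 (19.5%) were in 1 list alone, against 17.1%. Per 100 kb of searched window the clusters held 19.4 (Hoxa), 13.6 (Hoxb), 19.2 (Hoxc) and 16.3 sites (Hoxd). In the homeostasis list the Hoxb cluster had 3 regions, 1 in Hoxb8 and 2 in the Hoxb3 span, where Hoxa had 9, Hoxc 7 and Hoxd 6. Sites were 228 to 1994 bases wide, 49 lay inside a Hox gene span, 20 upstream and 18 downstream of the nearest one. The most sites belonged to Hoxa2, Hoxa3 and Hoxd3 with 6 each. Hoxb3, Hoxc4, Hoxc6, Hoxc11 and Hoxc12 had 4 each. The spans of Hoxa3, Hoxb3 and Hoxd3 in the table are long and contain other Hox genes. A site inside such a gene was given to the shorter gene. A site just outside it was given to the long span, even when near the start of the shorter gene.

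**Figure D3:**
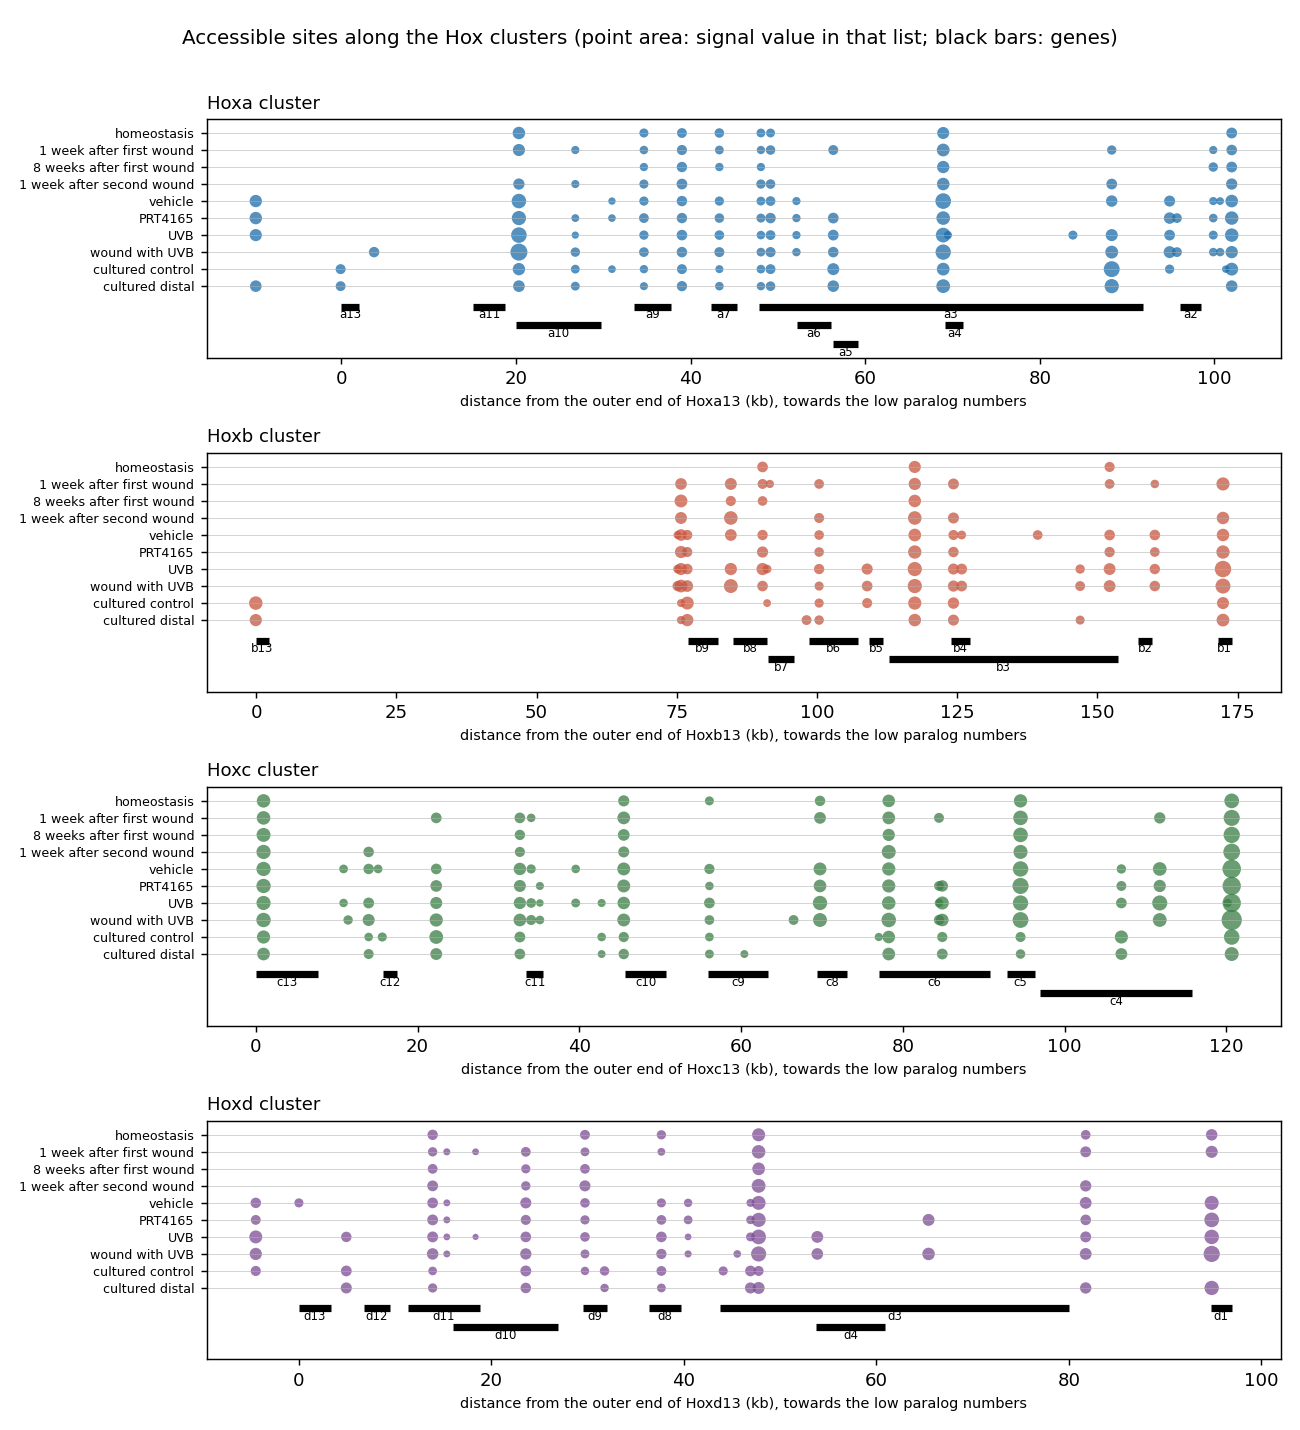
Hox sites along each cluster (x axis, kb from the outer end of the gene of highest number) in each list (rows); point area is proportional to the authors' signal value and black bars are the listed genes. Columns of points through all rows are the sites in 10 lists, and the points near 0 kb in Hoxa and Hoxb mark the Hoxa13 start and the Hoxb13 upstream end in the 2 cultured lists.

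The genes of group 13 differed in which lists held them. Hoxc13 had a site across the upstream end of its span in all 10 lists. Signal values were 11.2 in homeostasis, 11.3 and 11.9 at 1 and 8 weeks past the first wound, and 12.4 after the second. Vehicle gave 12.5, PRT4165 12.6, UVB 12.3, wounding with UVB 12.7, and the control and distal cultures 10.7 and 9.88. In every list this lay above the median of all regions. The other 3 genes of the group, Hoxa13, Hoxb13 and Hoxd13, had no region in the homeostasis list and the 3 lists of wounding alone. The cultured distal list, with 45714 regions, is shorter than the 1-week list with 49078 and held regions at all 3.

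At Hoxb13 the only region was a site at chr11:96193966-96194796 (831 bases), with its summit 52 bases upstream of the gene span. Its signal value was 11.2 in the control culture, stronger than 65.1% of that list, and 9.17 in the distal culture, stronger than 46.8%. The promoter of Hoxa13 printed above was likewise covered in both cultured lists and no other, by a site at chr6:52260811-52261229 with signal values of 6.14 and 6.01 and its summit 83 bases from the start. The vehicle, PRT4165, UVB and wound-with-UVB lists had neither region although each is longer than both cultured lists. With each list cut to its strongest 34644 regions, the Hoxb13 region was kept in both cultures and was in no other list. The Hoxa13 promoter region was stronger than only 20.1 and 13.8% of the 2 cultured lists and was lost from both at that length.

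The remaining group 13 regions were outside the promoters or in the longer lists. A site 9800 bases upstream of Hoxa13, near the edge of its window, was held by the vehicle, PRT4165, UVB and cultured distal lists (9.35, 9.49, 9.06 and 8.28). Hoxd13 had a site 4465 bases upstream with values of 6.76 with vehicle, 5.98 with PRT4165, 10.4 with UVB, 9.16 with wounding and UVB and 6.32 in the cultured control. Another Hoxd13 site, 1.56 kb downstream, was in the UVB and both cultured lists (6.67, 7.16 and 7.53). The CpG-rich Hoxd13 promoter was covered with vehicle only, at 5.11.

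Besides those of Hoxa13 and Hoxb13, a site inside Hoxd9 was held by both cultures and no other list (5.52 and 4.41). Such sites were 3 of 87 Hox sites (3.45%, Wilson 95% interval 1.18 to 9.65%), against 7.75% of all sites, a share inside the interval. In the opposite pattern, 9 Hox sites (10.3%) were in the vehicle, PRT4165 and both UVB lists and in neither culture (interval 5.54 to 18.5%), against 17.2% of all sites. They were given to Hoxa2, Hoxa3, Hoxb2, Hoxb3, Hoxb8, Hoxc4, Hoxc8, Hoxd8 and Hoxd11, genes with numbers from 2 to 11. The one given to Hoxa3 lay in its long span but covered the Hoxa6 promoter. Its values there were 4.13 with vehicle, 4.28 with PRT4165, 4.20 with UVB and 4.35 with wounding and UVB. Hoxb2 had no region in its window in either culture, in the 8-week list or after the second wound. The strongest of the 9 sites were in Hoxc4, with 11.5 with vehicle, 9.25 with PRT4165, 14.01 with UVB and 11.8 with wounding and UVB, and in Hoxc8, with 10.2, 9.94, 12.6 and 11.9. The Hoxc8 site was also in the homeostasis and 1-week lists (6.70 and 8.52), and the Hoxc4 site in the 1-week list (7.86).

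Hoxa3, a regulator of pharyngeal organs, held a site that ranked high in the cultures. This site, 758 bases wide at chr6:52172325-52173082, was the strongest of the Hoxa cluster in both cultures, at 15.6 in the control (stronger than 85.7% of the list) and 12.5 in the distal list (70.7%). In the other lists that had it, its value was 5.34 at 1 week, 7.11 after the second wound, 8.05 with vehicle, 8.94 with UVB and 10.1 with wounding and UVB, stronger than 10.4 to 44.1% of the regions there. It was absent from the homeostasis, 8-week and PRT4165 lists. These ranks come from lists of different lengths and were not tested.

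The site with the highest signal of any Hox site in 8 of 10 lists lay 4.94 kb downstream of Hoxc4, at chr15:103041527-103042275. Its value was 13.3 in homeostasis, 15.96 and 16.2 at 1 and 8 weeks past the first wound and 17.2 after the second. Vehicle gave 21.1, PRT4165 20.6, UVB 20.7, wounding with UVB 25.2, and the control and distal cultures 14.8 and 11.9. It was stronger than 82.9 to 97.4% of the regions of its list except in the cultured distal list, where it was stronger than 67.5%. The Hoxa3 site above was stronger in both cultures, as was the Hoxd1 promoter in the distal one.

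The other 12 sites in all lists were spread over the middle and the ends of the clusters. In Hoxc they lay at Hoxc5 near Mir615, in Hoxc6, at Hoxc10 and at Hoxc13. The homeostasis and second-wound regions of the Hoxc5 site did not reach the mature sequences of Mir615. The Hoxc5 site had values of 10.9 in homeostasis, 13.1 at 1 and at 8 weeks past the first wound and 12.1 past the second, 14.6 with vehicle, 15.9 with PRT4165, 14.3 with UVB and 15.4 with wounding and UVB, all above the median of their list. In the cultures its values were 6.23 (control) and 5.54 (distal), stronger than 20.7 and 9.57% of the regions, the lowest ranks of this site. The site merges regions of more than 1 summit, and the control culture's 6.23 belonged to a region at chr15:103014116-103014542, away from the summit of the strongest region in the other 9 lists. The control culture's region at that summit had 5.01. The Hoxd3 site had 6.12 in the control culture (stronger than 19.6% of the list) and 8.83 in the distal one (43.4%), against 9.91 to 14.03 in the other 8 lists. The remaining sites in all lists included 2 in the Hoxa3 span, 2 at Hoxa9, 1 in Hoxb3 and the Hoxd11 promoter. Another lay downstream of Hoxa2 in the span of a neighbouring gene not on the list. The stronger Hoxa3 site also lay within 1 kb of an end of Hoxa4, with values from 8.89 (homeostasis) to 14.99 (vehicle). Those at Hoxa9 and the weaker Hoxa3 site had values between 4.04 and 7.11 in every list and were stronger than at most 27.4% of its regions.

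**Figure D4:**
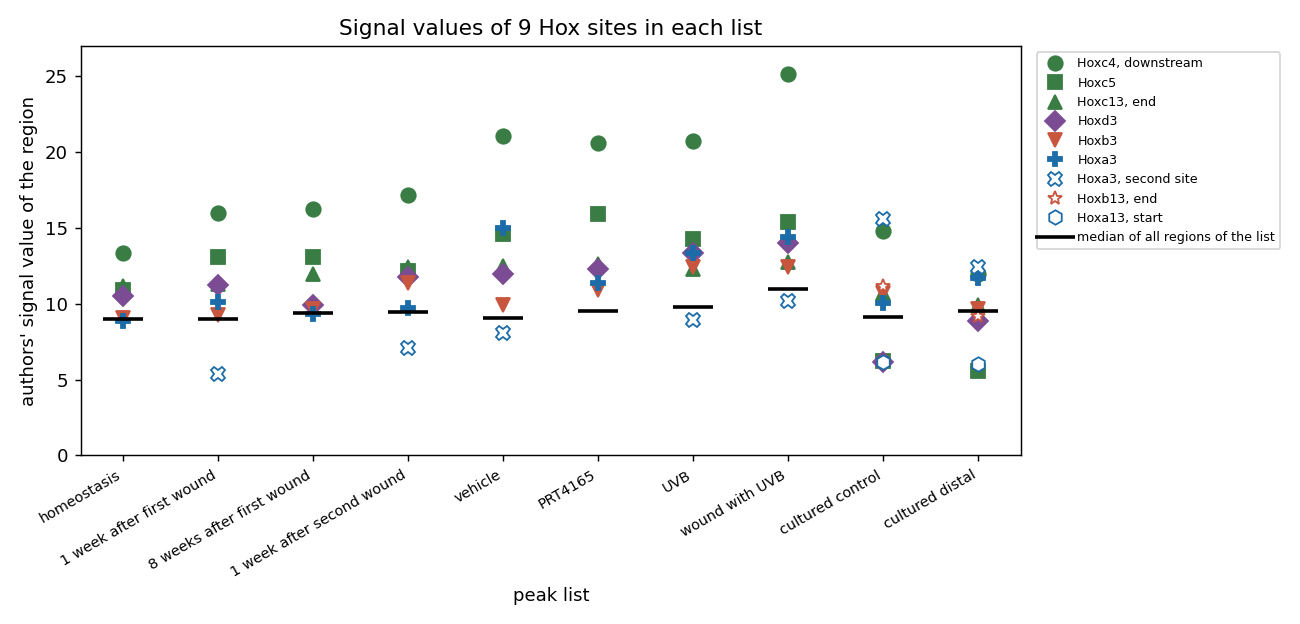
Authors' signal value (y axis) of 9 Hox sites in each of the 10 lists (x axis), with a black bar at the median of all regions of the list; open symbols are the 3 sites missing from some lists. The Hoxc4 site lies above the median in all lists, while the Hoxc5 site lies below it in both cultures. The filled Hoxa3 symbol is the site within 1 kb of an end of Hoxa4.

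Region by region, Hox sites of 1 list alone were weak. The 17 such sites were 4 each in the cultured control and wound-with-UVB lists, 3 each with vehicle and UVB, 2 in the distal culture and 1 at 1 week after the first wound, inside Hoxb7. Their highest signal value was 6.71, 1.72 kb downstream of Hoxa13 with wounding and UVB. One site was in both UVB lists and no other (1.15% of Hox sites, against 1.52% of all sites). It covered the start of Hoxd4, with 8.62 with UVB and 8.33 with wounding and UVB. A site 140 bases upstream of Hoxb9 was in the 6 lists of vehicle, PRT4165, UVB, wounding with UVB and both cultures (6.36, 6.34, 6.92, 8.41, 10.3 and 9.24) and in none of the other 4.

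The first comparison sets the list of 1 week after the first wound beside that of homeostasis, which is shorter. Against homeostasis, 20 of 44 Hox regions were gained, that is, without overlap in the other list (45.5%, Wilson 95% interval 31.7 to 59.9%), where 33.1% of all regions were gained. Of the 25 Hox regions of homeostasis, 1 was lost, in Hoxc9 (4%, interval 0.710 to 19.5%, against 6.04% of all). Gained regions numbered 7 in Hoxb, 6 in Hoxc, 4 in Hoxa and 3 in Hoxd. The strongest were in Hoxb1 (10.6, stronger than 65.01% of the list), upstream of Hoxb8 (8.78) and upstream of Hoxb9 (8.39). The others, among them regions in Hoxa5, Hoxb4, Hoxb6, Hoxc4 and Hoxd10 and 2 each at Hoxc11 and Hoxd11, had values between 2.88 and 7.86. Among regions below the median signal of their list, a split chosen after the data were seen, 57.6% of Hox regions (40.8 to 72.8%) and 50.9% of all regions were gained. The direction changed with both lists cut to the 35195 strongest regions. Then 5 of 17 Hox regions were gained (29.4%, against 23.9% of all) and 13 of 25 lost (52%, against 22.8%). The cut removes the weakest regions of the longer list, and Hox regions were weak within their lists. Y-linked regions also separate the 1-week list from homeostasis.

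At 8 weeks after the first wound the list was nearly as long as that of homeostasis, and neither had Y-linked regions. Of 22 Hox regions 5 were gained (22.7%, interval 10.1 to 43.4%, against 17.9% of all), and of 25 in homeostasis 9 were lost (36%, 20.2 to 55.5%, against 19.1% of all). The gained regions were at Hoxa2, Hoxb8, Hoxb9, Hoxc11 and Hoxd10, with the strongest upstream of Hoxb9 (10.2, stronger than 58.2% of the list). The lost ones were at Hoxa2, Hoxa3, Hoxa10, Hoxb3, Hoxc8, Hoxc9, Hoxd1, Hoxd3 and Hoxd8, and the strongest were in Hoxa10 near a start site (9.57, stronger than 55.7%) and at the Hoxd1 start (8.13, 39.6%). The lost Hoxa2 region was part of a merged site that the 8-week list still held, with a highest value of 7.22 in both lists. With the lists cut to the same length, 5 gained (22.7%, against 18.4% of all) and 9 lost regions (36%, against 18.4%) were counted again. Among regions below the median, 8 of 18 Hox regions were lost (44.4%, 24.6 to 66.3%), against 32.9% of all such regions, a share inside the interval.

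Between the 2 times after the first wound, 0 of the 22 Hox regions of the 8-week list were absent at 1 week (interval up to 14.9%, against 5.5% of all). Of 44 at 1 week, 23 were absent at 8 weeks (52.3%, 37.9 to 66.2%, against 33.7%). Among regions below the median, 20 of 33 Hox regions were lost (60.6%, 43.7 to 75.3%), against 52.4% of all such regions, a share inside the interval. Losses were even over the clusters, with 6 each in Hoxa, Hoxb and Hoxc and 5 in Hoxd. The lost Hoxa2 and Hoxc5 regions were parts of merged sites that the 8-week list still held. The strongest lost regions were at Hoxb1 (10.6), in Hoxa10 (9.06) and at the Hoxd1 start (8.99). Cut to equal length, 11 of 22 Hox regions were gained (50%, against 22.3%) and 7 of 17 lost (41.2%, against 23.2%), so the lack of gains was not kept.

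After the second wound, compared with the first at the same interval of 1 week, 1 of 27 Hox regions was gained, 1.77 kb upstream of Hoxc12 (3.70%, 0.657 to 18.3%, against 9.85% of all). Of 44 regions 17 were lost (38.6%, 25.7 to 53.4%, against 23.1%), with 6 in Hoxc, 4 each in Hoxb and Hoxd and 3 in Hoxa. The strongest lost regions were the Hoxd1 start (8.99), Hoxc8 (8.52) and Hoxc4 (7.86). The lost Hoxc5 region was part of a merged site that the second-wound list still held. Among regions below the median 48.5% of Hox regions were lost (32.5 to 64.8%), against 38.3% of all, again inside the interval. Cut to equal length, 8 of 27 were gained (29.6%, against 17.97% of all) and 8 of 28 lost (28.6%, against 18.9%). Both lists had Y-linked regions.

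The vehicle list was the longer by far when set against homeostasis, and all 25 Hox regions of homeostasis were found in it (0 lost, interval up to 13.3%, against 1.15% of all). Of its 60 Hox regions 35 were gained (58.3%, 45.7 to 69.9%, against 50.6% of all). Hoxb accounted for 12 of these, Hoxc for 10, Hoxa for 7 and Hoxd for 6. Hoxb9 gained 4 regions, and Hoxa2, Hoxc11 and Hoxc12 gained 3 each. The strongest was in Hoxc4 (11.5, stronger than 67.5% of the list), followed by Hoxb1 (9.64), the region upstream of Hoxc11 (9.51) and the one upstream of Hoxa13 (9.35). Cut to equal length, 4 of 16 were gained (25%, against 26.98%) and 13 of 25 lost (52%, against 26.02%).

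The PRT4165 comparison bears on Polycomb, since Hox clusters are its classical targets. Against vehicle, 7 of 53 Hox regions were gained (13.2%, 6.55 to 24.8%, against 11.4% of all) and 12 of 60 were lost (20%, 11.8 to 31.8%, against 13.9%), and both background shares lay inside the intervals. Gained regions were at Hoxa2, Hoxa5, Hoxa10, Hoxc11, Hoxd3 and, with 2, Hoxc6, and none was in Hoxb. The strongest were in Hoxd3 (8.76, stronger than 43.5% of the list), Hoxc6 (8.09) and the Hoxa5 promoter (7.12). Lost regions numbered 5 in Hoxc, 4 in Hoxb, 2 in Hoxa and 1 in Hoxd, the CpG-rich Hoxd13 promoter (5.11). The strongest lost regions were upstream of Hoxb8 (8.49) and in Hoxa3 (8.05). All 19 were below the median of their list. Among regions below the median the shares were 17.9% gained and 27.3% lost, against 20.9 and 26.2% of all such regions.

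UVB, ultraviolet light that damages DNA in the epidermis, was compared with vehicle. Of 71 Hox regions 16 were gained (22.5%, 14.4 to 33.5%, against 16.2% of all) and of 60 with vehicle 6 were lost (10%, 4.66 to 20.1%, against 11.6%). The gained regions were 5 in Hoxc, 4 each in Hoxa and Hoxb and 3 in Hoxd. The strongest were in Hoxc6 (10.5, stronger than 55.0% of the list), at the Hoxd4 start (8.62), upstream of Hoxb5 (7.63) and at the Hoxa5 promoter (7.13). Hoxb3 lost 2 regions, and Hoxa2, Hoxa10, Hoxc12 and Hoxd13 lost 1 each, with values up to 5.79. The weaker of the lost Hoxb3 regions was part of a merged site that the UVB list still held. Background shares again lay inside the intervals.

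Wounding in addition to UVB gave 8 gained of 65 Hox regions (12.3%, 6.37 to 22.5%, against 10% of all) and 14 lost of 71 (19.7%, 12.1 to 30.4%, against 19.3%). Hoxa2 and Hoxd3 gained 2 regions each, and Hoxa13, Hoxc8, Hoxc13 and Hoxd8 gained 1 each. The strongest gained region was in Hoxd3 (9.65, stronger than 40.3% of the list) and the strongest lost one was upstream of Hoxa13 (9.06). Cut to equal length, 18 of 65 were gained (27.7%, against 15.7% of all) and 4 of 51 lost (7.84%, against 16.9%). Only the list with wounding had Y-linked regions.

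**Figure D5:**
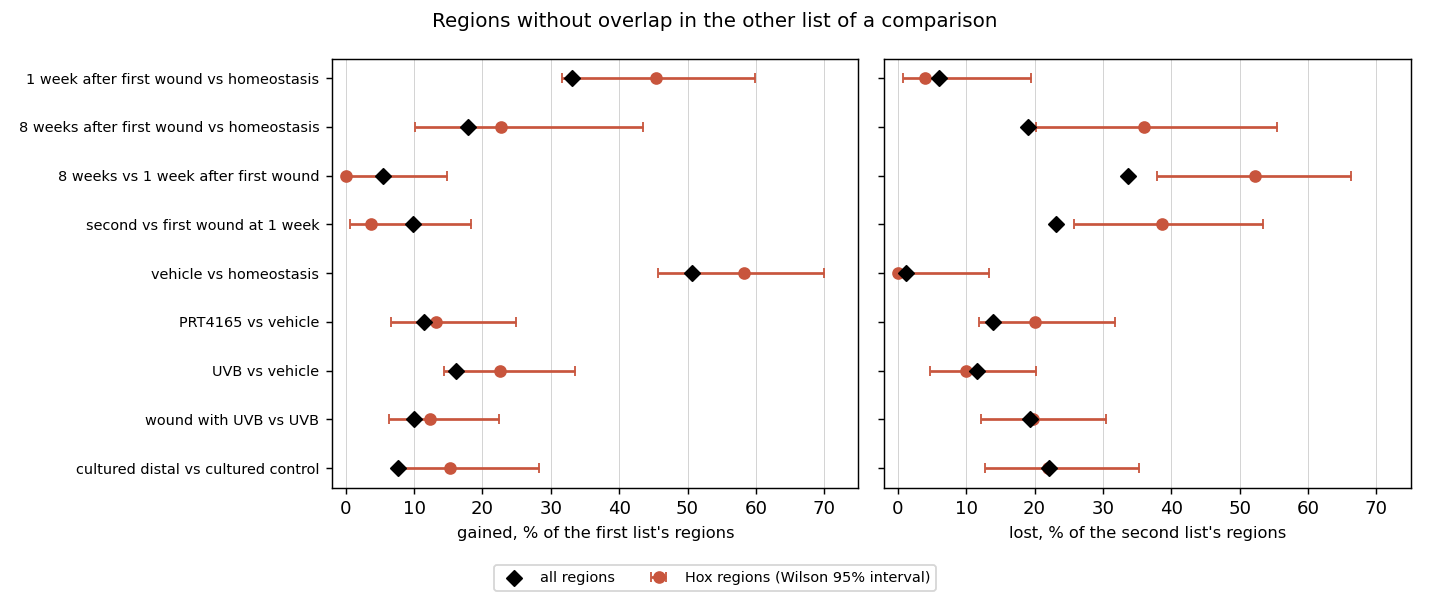
Share of Hox regions (circles, with Wilson 95% intervals) and of all regions (diamonds) that were gained (left, % of the first-named list) or lost (right, % of the second-named list) in each of 9 comparisons. The Hox share lost lies above that of all regions at 8 weeks against 1 week (52.3% against 33.7%), after the second wound (38.6% against 23.1%), and at 8 weeks against homeostasis (36% against 19.1%); in these 3 the diamond is outside the interval, elsewhere inside. Among regions below the median signal, a split chosen after the data were seen, the Hox shares lost were 60.6, 48.5 and 44.4% in these 3. Those of all such regions were 52.4, 38.3 and 32.9%, lower but inside the intervals. With fewer Hox regions these intervals are wider, and a part of weak signal in the difference was not tested.

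The last comparison sets cells cultured from the distal memory region against those from the control region. Of 46 Hox regions 7 were gained (15.2%, 7.57 to 28.2%, against 7.6% of all) and of 50 in the control 11 were lost (22%, 12.8 to 35.2%, against 22.2%). The gained region at the Hoxd1 start was the strongest Hox region of the distal list (12.5, stronger than 71.4% of the list). It covers the promoter printed above, which the control culture, the 8-week list and the second-wound list lacked. Its values elsewhere were 8.13 in homeostasis, 8.99 at 1 week, 12.1 with vehicle, 13.3 with PRT4165, 12.9 with UVB and 16.1 with wounding and UVB. The other gained regions were upstream of Hoxa13 (8.28), downstream of Hoxd3 (7.92), upstream of Hoxb6 (6.04), 2 in Hoxb3 and 1 in Hoxc9. Lost regions, with values up to 6.32, were 2 at Hoxa2 and 1 each at Hoxa10, Hoxb5, Hoxb7, Hoxc5, Hoxc6, Hoxc12, Hoxd3, Hoxd9 and Hoxd13. Cut to equal length, 19 of 46 were gained (41.3%, against 15.5% of all) and 3 of 30 lost (10%, against 16.04%). Both lists had Y-linked regions, and comparisons above that share a list (homeostasis, 1 week, vehicle or UVB) are not independent of each other.

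Hox proteins bind DNA together with homeodomain cofactors of the TALE class, among them the Meis and Pknox proteins. Meis1, Meis2, Pknox1 and Pknox2 had a region in 10 of 10 lists, and Meis3 in 6, where 61.8% of all protein-coding genes had one in 10 lists. Of 10 genes that regulate Hox clusters, 6 to 9 had a region, beside 66.1 to 76.1% of all protein-coding genes per list. The retinoic acid receptors Rara, Rarb and Rarg, the retinoic acid-degrading enzyme Cyp26b1, Cdx2 and the histone methyltransferase Kmt2a had one in 10 of 10 lists, Cdx1 and Cyp26a1 in 3 and Cdx4 in none. Of the 8 protein-coding neighbours of the clusters, 5 to 8 had a region, beside the same share of all genes. Evx1 and Evx2, homeobox genes beside Hoxa13 and Hoxd13, had one in 5 and 6 lists and, like Hoxa13 and Hoxd13, in none of the homeostasis, 1-week, 8-week and second-wound lists.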

How the data were processed

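ATAC-seq libraries were made from sorted cells with Tn5 transposase and Nextera XT indexing, per the labels' protocols. Positions are in mm10 (per the submitters' processing notes). The sources used here give no aligner, peak caller, filter, read depth or shift of reads for the transposase. The authors deposited 1 peak list per group of 2 libraries, which as far as its name tells keeps peaks reproducible between both. Each list gives the authors' signal value of a peak, used to rank regions within a list, the authors' −log10 p, not used for any result, and the deposited summit offset.

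Peaks of a list that overlapped, on autosomes and sex chromosomes, were joined to a region with the signal value and summit of its strongest peak. Gene spans came from RefSeq (GRCm38.p6), without exons, so exons, introns and UTRs were not separated; a start site was taken from the promoter table, else an end of the span was used. Regions were given to the shortest listed gene that contains the summit, else to the nearest end. Gained or lost means no overlap of 1 bp with the other list. A gained or lost region can be part of a merged site that the other list holds through another region. This occurred at Hoxa2, Hoxb3, Hoxb4, Hoxc5 and Hoxd8. No value exists per library, so there was no test and no replicate error; intervals are Wilson 95% intervals. Named were genes with a region near the start in all or no lists, those with most sites, those that gained or lost a region (the strongest with values), sites in all lists, in 1 list or in 1 treatment class, and the strongest site per cluster. The genes and gene lists were chosen with earlier results of these data known. Part of the cofactor list is not reported here. Alternatives were a window of 2 kb, lists of equal length, the strongest 50% of regions, unmerged peaks and an overlap of 50%; the split at the median signal was added after the data were seen. Counting was tested on simulated data made from the homeostasis list, with 8 Hox regions removed and 12 added, where 8 lost and 12 gained were found, and 18 of 18 overlap counts equalled those of bedtools 2.31.1. Python 3.11.15, numpy 2.4.6, pandas 2.3.3, scipy 1.17.1 and matplotlib 3.10.9 were used.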

Additional observations from a re-analysis of the deposited data

How the results depend on the processing

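Of 116 alternative values for 30 counts, 66 stayed within 1.5 times the reported count and 50 did not. A window of 2 kb kept 28 of 30 counts; for wounding with UVB against UVB it gave 5 gained and 9 lost Hox regions. Counting only gained or lost regions below the median signal kept all 18 counts, which are part of the 66. Most gained and lost Hox regions were below the median, so this was nearly fixed in advance. It does not show that the counts are stable. Lists of equal length accounted for 21 of the 50, more than any other alternative. With every list cut to the length of the shortest there were 44 Hox sites, 5 of them in all 10 lists, and 17 Hox regions at 1 week, 16 with vehicle, 14 with PRT4165, 15 with UVB, 14 with wounding and UVB, and 15 and 23 in the control and distal cultures. In lists cut to the shorter of a pair, gained and lost regions were 5 and 13 for 1 week against homeostasis, 11 and 7 for 8 weeks against 1 week, 8 and 8 for the second against the first wound, 4 and 13 for vehicle against homeostasis, 18 and 4 for wounding with UVB against UVB and 19 and 3 for the cultured distal against the control list. In each of these pairs the more frequent direction changed when the lists were cut, except for the second wound, where losses and gains became equal. The strongest 50% of regions held 7 (homeostasis), 11 (1 week), 6 (8 weeks), 9 (second wound), 16 (vehicle), 13 (PRT4165), 15 (UVB), 13 (wounding with UVB), 12 (cultured control) and 8 (cultured distal) Hox regions, and unmerged peaks with distinct summits numbered 52, 96, 42, 54, 123, 106, 129, 114, 99 and 104 in the same order. Requiring an overlap of 50% of both regions gave 6 lost at 1 week against homeostasis, 9 gained at 8 weeks against homeostasis, 4 gained at 8 weeks against 1 week, 7 gained after the second wound, 6 lost with vehicle against homeostasis, 11 lost with UVB and 12 gained in the cultured distal list.

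No paired analysis was possible because each list pools both libraries of its group, and for the same reason no replicate was left out. Depth is unknown, so an absent region means that none passed the threshold of its list.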
